A study of Mus musculus with 2 samples.

Results

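Cartilage cells that enlarge and leave the growth plate, and the osteoblasts that then lay down bone, each turn on sets of genes. The RefSeq gene table (GRCm38.p6) holds 21887 protein-coding genes. Of these, 10 linked to hypertrophy or bone formation were examined for the repressive histone mark H3K27me3 in newborn mouse rib chondrocytes. They are a list of names, drawn up with earlier results of these data known, of 5 transcription factors (Runx1, Runx2, Runx3, Sp7 and Mef2c), 4 proteins of the mineralized matrix (Ibsp, Spp1, Bglap and Dmp1) and the phosphate regulator Phex. A gene was taken to have the mark when the authors' annotated peak table joined a peak to it, which that table did within 5 kb.

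The chondrocytes came from the dissected rib cartilage of new born wild-type CD1 mice, were released with collagenase, strained and kept overnight in DMEM with serum, with no other treatment. One library of DNA precipitated with an H3K27me3 antibody (H3K27me3 ChIP) was set against 1 library of unprecipitated chromatin (input), from the same kind of cells. The antibody labels contradict the titles, since the library titled as input carries H3K27me3 as its antibody and the library titled as precipitated carries input, and the titles were followed here. The number of animals and whether they were pooled were not given in the sources used here. With 1 library in each group no value has a replicate error, no test between groups was possible, and all comparisons below are descriptions of 1 peak list.

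H3K27me3 is placed by Polycomb repressive complex 2, whose catalytic subunit is Ezh2 or Ezh1, and it marks genes that are kept silent, often over broad domains around the start sites of developmental regulators. In endochondral bone formation proliferating chondrocytes stop dividing, become hypertrophic and are replaced by bone. Runx2 and Runx3 drive hypertrophy, Mef2c acts with them, and Sp7 is required after Runx2 for osteoblasts to form.

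After filtering, 17237574 ChIP tags and 17004082 input tags remained per the file headers, and the authors called 19359 peaks from them. No peak in the list had a mean pileup under 9.86 fragments, where the genome-wide background was 2.67, and a mark weaker than this was not detectable at this depth. Fold enrichment is the authors' ratio of ChIP pileup to input background, and the q-value is their mean over a peak. Of the genes that define the labelled cell type, 0 of 14 chondrocyte marker genes, which included Col2a1, Acan and Sox9, had a peak (upper Wilson limit 21.5%), where the share over all protein-coding genes was 20.7%. Of markers of other cells, peaks were joined to 4 of 5 skeletal muscle genes (not Myog), 1 of 4 endothelial genes (Kdr), 1 of 4 blood genes (Ptprc), 1 of 5 osteoclast genes (Calcr) and 1 of 5 perichondrial and fibroblast genes (Thy1). The lists are small, and the last 4 counts are near the share over all genes. A peak list does not show expression, and in bulk chromatin a mark on few cells and a weak mark on all cells cannot be told apart.

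The start regions of the Runx genes are printed first, because the distance of the peaks from them is what the results turn on. Each Runx gene has a distal promoter and an inner one further into the gene, and in the RefSeq promoter table, which holds the 250 bases before and 50 bases after a start, both are given for Runx1 and Runx3 and only the distal one for Runx2. The distal windows of all 3 genes shared a run of 18 bases, which contains 2 copies of the core motif ACCACA that Runx proteins bind. It is shown in capitals, 5′ to 3′ on the strand of the gene, at chr16:92826025-92826054 (minus strand), chr17:44814583-44814612 (minus strand) and chr4:135120503-135120532 (plus strand).
Runx1 distal: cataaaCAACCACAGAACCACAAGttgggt
Runx2 distal: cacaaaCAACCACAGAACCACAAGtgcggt
Runx3 distal: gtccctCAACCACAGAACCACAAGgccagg
The run began 26 bases downstream of the listed start in Runx1, 21 bases downstream in Runx2 and 136 bases upstream in Runx3. Among 32851 promoter windows of the table the run, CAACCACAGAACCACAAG on either strand, occurred in 4, namely these 3 and that of Gm16225, whose window overlaps the distal window of Runx3. It was taken as the longest run common to the 3 distal windows, so its presence in them is by construction. The core motif alone, searched as ACCACA and TGTGGT, occurred in 16.8% of all windows. It occurred in 6 of the 15 windows of the 10 genes, which come from 9 of them. Those 6 include the 3 distal Runx windows, which hold it through the shared run, besides 1 window each of Spp1, Bglap and Dmp1. A match describes the letters and not the binding of a protein.

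The inner start regions are rich in CpG dinucleotides, which are in capitals below. The 250 bases before the inner start of Runx3 (chr4:135152295-135152544, plus strand) are shown because both Runx3 peaks flank them, and those of Runx1 (chr16:92697330-92697579, minus strand) because they are the like region with no peak near.
Runx3 inner: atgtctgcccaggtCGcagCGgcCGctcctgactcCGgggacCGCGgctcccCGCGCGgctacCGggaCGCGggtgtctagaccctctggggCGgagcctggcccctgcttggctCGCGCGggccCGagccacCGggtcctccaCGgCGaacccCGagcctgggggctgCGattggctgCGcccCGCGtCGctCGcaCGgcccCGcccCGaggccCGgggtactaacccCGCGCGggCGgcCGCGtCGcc
Runx1 inner: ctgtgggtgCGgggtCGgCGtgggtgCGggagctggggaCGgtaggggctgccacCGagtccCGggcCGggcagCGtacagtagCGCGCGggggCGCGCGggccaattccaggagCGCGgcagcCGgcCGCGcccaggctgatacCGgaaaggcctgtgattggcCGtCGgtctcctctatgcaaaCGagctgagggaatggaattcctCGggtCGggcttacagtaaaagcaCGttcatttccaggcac
The full window of Runx3 had 77.3% G and C, 45 CpG dinucleotides and an observed to expected CpG ratio of 1.01. That of Runx1 had 69% G and C, 35 CpG dinucleotides and the same ratio of 1.01. The distal windows of Runx1, Runx2 and Runx3 had ratios of 0.137, 0.143 and 0.264, against a median of 0.384 over all windows.

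Of the 10 genes, Runx3 and Ibsp had a peak, and the other 8 had none within 5 kb. This share of 2 in 10 (20%, 95% Wilson interval 5.67 to 51%) stands beside 20.7% of all protein-coding genes (4535), so it does not set the genes apart from the genome. Both were also counted when the peak had to overlap the gene body (14.2% of protein-coding genes) and by their gene table positions with a reach of 5 kb (22%) or 20 kb (32.9%). No 5′ end was under a peak, in 0 of the 9 genes with a listed strand (upper Wilson limit 29.9%), beside 4.56% of genes. Long genes meet peaks more often, and of protein-coding genes of 50 kb or more 29% had one. Of the 5 such genes here (Runx1, Runx2, Runx3, Mef2c and Phex) only Runx3 did. All intervals cover counting error only.

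**Figure D1:**
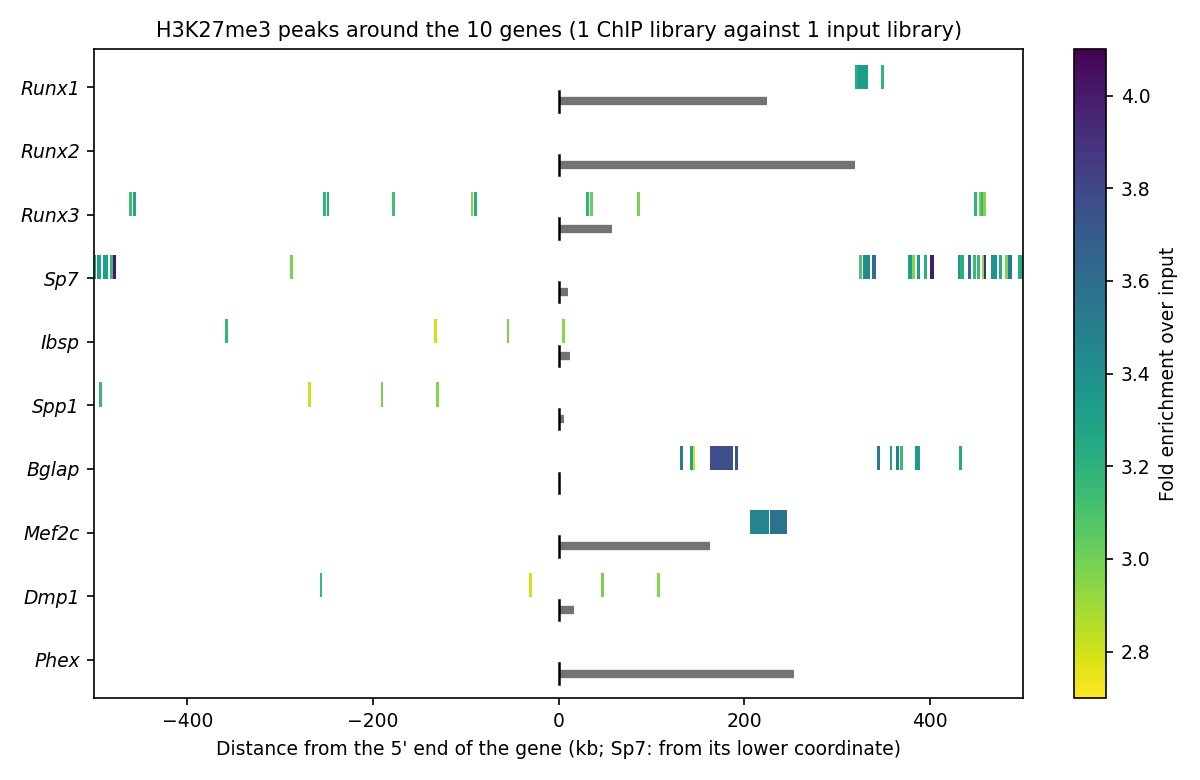
Peaks within 500 kb of the 5′ end of each of the 10 genes (of the lower coordinate for Sp7), with the horizontal axis giving the distance from it in kb and the gene body as a grey bar to the right of it. Coloured blocks are peaks, drawn at least 3 kb wide and shaded by fold enrichment, and only those of Runx3 and Ibsp fall on a gene body, while the rows of Runx2 and Phex are empty.

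Together the 3 peaks of Runx3 and Ibsp covered 2282 bp. All were narrow, with a median of 908 bp against 1270 bp over all peaks and a highest value of 912 bp. Their fold enrichment had a median of 3.02 and a highest value of 3.19, against a median of 3.16 over all peaks. Of the 3, 1 had a q-value no higher than 0.05. At that threshold only Runx3 was counted, beside 16.4% of protein-coding genes, and at 0.01 none was, beside 5.9%. None was counted with a fold enrichment of 3.5 or more (5.35% of genes) or a width of 1 kb or more (17% of genes).

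Runx3 drives chondrocyte hypertrophy together with Runx2. The gene (chromosome 4, 135120645 to 135177990, plus strand, 57.3 kb) had its first peak at 135150216 to 135151127, 29.6 kb inside the gene from the distal start. It was 912 bp wide with a pileup of 11.53 fragments over a background of 2.93 and an enrichment of 3.19-fold (q-value 0.0307). In the whole list, 66.5% of peaks were wider and 44.9% had a higher fold enrichment. The second peak, at 135154625 to 135155086, was 462 bp wide, with a pileup of 10.32 and an enrichment of 3.02-fold (q-value 0.072). It ranked lower, with 88.8% of peaks wider and 77.6% higher in fold enrichment.

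The inner start of Runx3, at 135152545, lay in the gap of 3497 bp between these peaks. It was 1418 bp past the end of the first and 2080 bp before the second, and 31.9 kb from the distal start. The CpG-rich window printed above was therefore flanked on both sides but not covered. The peaks took up 2.4% of the length of the gene. Whether the gap is a stretch without the mark or a stretch below the calling threshold cannot be told apart from peaks alone.

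**Figure D2:**
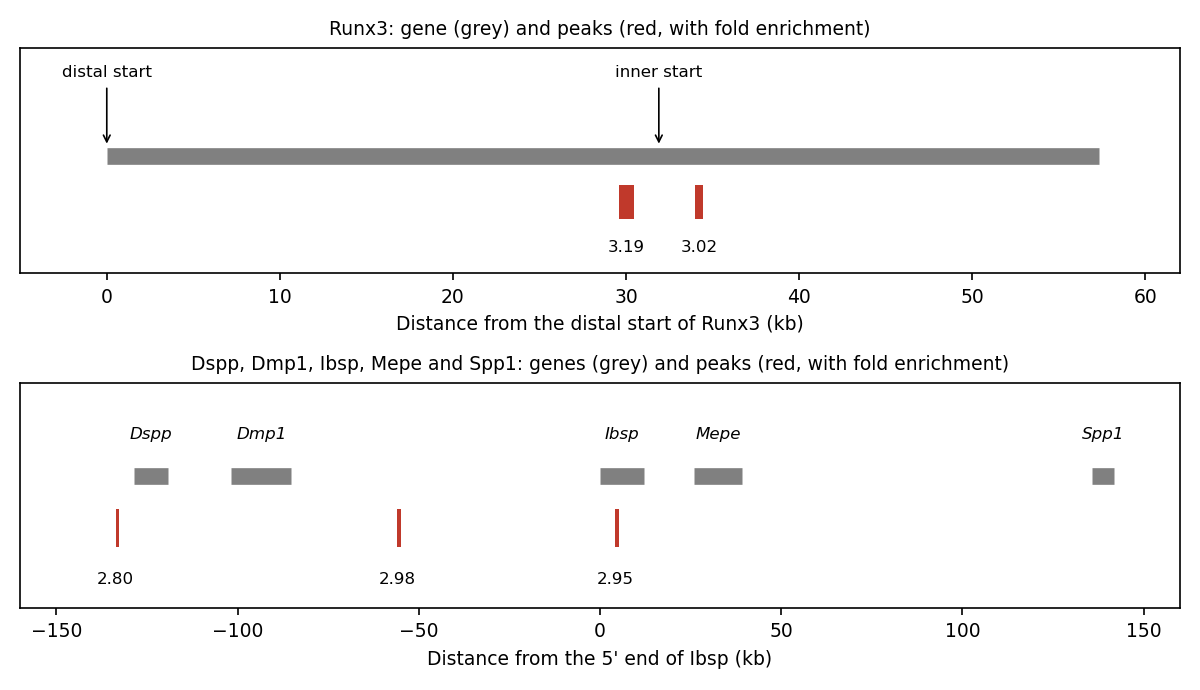
Positions of peaks (red, with their fold enrichment) and genes (grey) in kb at Runx3, from its distal start, and at the cluster of Dspp, Dmp1, Ibsp, Mepe and Spp1, from the 5′ end of Ibsp. The inner start of Runx3 stands between peaks of 3.19 and 3.02, and in the cluster the peak of 2.95 is the one inside a gene.

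Runx1, which acts in early chondrocytes and in blood formation, lies on chromosome 16 (92601466 to 92826074, minus strand, 225 kb) and had no peak. The nearest was 94.9 kb beyond its 3′ end, at 92505451 to 92506595, and belonged to Clic6, a chloride channel gene. That peak was 1.15 kb wide and enriched 3.22-fold (q-value 0.0358). From the distal start the distance was 319 kb, and the inner window, with the same CpG ratio as that of Runx3, was 191 kb from a peak. The middle of Runx1 lay in a stretch of 1.17 Mb without a peak, and 28.5% of protein-coding genes lay in a stretch at least as long.

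Runx2, the factor without which neither osteoblasts nor mature hypertrophic cartilage form, lies on chromosome 17 (44495987 to 44814797, minus strand, 319 kb). It too had no peak, and the nearest was 301 kb beyond its 3′ end, at 44194445 to 44195004, joined to Clic5. This peak was 560 bp wide and enriched 3.02-fold (q-value 0.0726). The 5′ end was 510 kb from a peak, and 0 peaks lay within 250 kb of the gene, as for 26.1% of protein-coding genes. The stretch without a peak was 1.13 Mb, and 22.1% of genes were as far from a peak or farther.

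The 3 Runx genes thus differed in the position of the nearest peak, from inside the gene in Runx3 to 94.9 kb in Runx1 and 301 kb in Runx2. Without replicates no error can be put on this order. Within 100 kb of the gene body Runx3 had 5 peaks, Runx1 had 2 and Runx2 had 0.

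Sp7, or osterix, is the zinc finger factor that commits precursors to the osteoblast lineage (chromosome 15, 102356603 to 102367035, 10.4 kb). Its nearest peak was 288 kb away at 102067153 to 102068608, 1.46 kb wide, enriched 2.98-fold (q-value 0.0275). On the other side the nearest was 314 kb away. The stretch of 612 kb between them held 24 protein-coding genes, Sp1 among them. Beyond it the density rose, and within 500 kb of Sp7 there were 29 peaks covering 85.2 kb, the most of the 10 genes.

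Mef2c, a MADS-box factor needed for hypertrophy, lies on chromosome 13 (83504017 to 83667079, plus strand, 163 kb). Its body had no peak, but 3 peaks at 83710008 to 83750556 began 42.9 kb past its 3′ end and spanned 40.5 kb. They were 1.61, 17.6 and 18.7 kb wide, with fold enrichments of 3.45, 3.46 and 3.57 and q-values of 0.0126, 0.0111 and 0.00685. The latter 2 were joined to the non-coding gene C130071C03Rik and the last also to Mir9-2, which encodes the neural microRNA miR-9. Both of the latter were wider than the nearest peak of any of the 10 genes. On the other side of Mef2c the nearest peak was 1556 kb away, and Mef2c was the only protein-coding gene that lay wholly in the stretch of 1.76 Mb between. Its 3 listed starts lay 136 to 206 kb from a peak.

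Of the matrix genes, Ibsp encodes bone sialoprotein, an acidic protein that binds mineral and appears with the first bone. The 250 bases before its start (chr5:104299037-104299286, plus strand) are shown, CpG dinucleotides in capitals, because Ibsp is the matrix gene with a peak.
Ibsp: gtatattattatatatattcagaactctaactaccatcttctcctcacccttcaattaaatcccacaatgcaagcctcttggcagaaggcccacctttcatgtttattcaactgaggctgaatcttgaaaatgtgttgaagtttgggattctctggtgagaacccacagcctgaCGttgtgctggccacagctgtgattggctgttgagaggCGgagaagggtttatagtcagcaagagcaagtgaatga
The full window had 5 CpG dinucleotides and a ratio of 0.311. The gene (chromosome 5, 104299287 to 104311472, plus strand, 12.2 kb) had 1 peak at 104303446 to 104304353, which began 4.16 kb inside it and covered 7.45% of its length. The peak was 908 bp wide with a pileup of 11.44 fragments and an enrichment of 2.95-fold (q-value 0.0625). In the list 96.3% of peaks had a higher fold enrichment and 72.9% a lower q-value, but only 35.2% had a higher pileup. The local background of 3.22 fragments was above the genome-wide value.

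Ibsp belongs to a cluster of mineral-binding proteins that runs over 270 kb from Dspp to Spp1. Within this span 2 peaks covered 2097 bp, or 0.776% of it. Beside the Ibsp peak, the other was 1.19 kb wide at 104243278 to 104244466, enriched 2.98-fold (q-value 0.0722), between Dmp1 and Ibsp. It was the nearest to Dmp1, a regulator of phosphate and of osteocyte maturation (104197575 to 104214102, plus strand), at 29.2 kb past its 3′ end. On its other side Dmp1 had a peak of 932 bp at 31.1 kb, which the authors' table joined to Dspp.

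Spp1, or osteopontin, a phosphoprotein of terminally differentiated hypertrophic cells and of bone (104435111 to 104441053, plus strand), had the Ibsp peak as its nearest, 131 kb upstream. On its other side no peak followed for 1559 kb. Mepe, between Ibsp and Spp1, was 21 kb from a peak. The 3 peaks in and beside the cluster, at 2.80, 2.95 and 2.98, were all below the median fold enrichment of the list. Their pileups, in the same order, were 12.23, 11.44 and 10.54 fragments, against a median of 11.04 over all peaks.

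Bglap encodes osteocalcin, the late marker of osteoblasts (chromosome 3, 88383495 to 88384466, minus strand, 972 bp). The 250 bases before its start (chr3:88384467-88384716, minus strand) hold the core Runx motif once, here in capitals, and are shown because Bglap is a classical target of Runx2.
Bglap: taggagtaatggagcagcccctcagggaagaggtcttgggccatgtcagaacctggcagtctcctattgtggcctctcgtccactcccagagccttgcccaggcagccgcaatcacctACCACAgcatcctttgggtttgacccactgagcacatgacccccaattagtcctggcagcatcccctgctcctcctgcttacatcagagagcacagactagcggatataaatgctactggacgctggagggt
Its nearest peak was 130 kb away at 88253573 to 88253870, only 298 bp wide, enriched 3.51-fold (q-value 0.0122). Bglap2 and Bglap3, near-identical copies next to it, were 124 and 115 kb from a peak. Reads from such copies may be hard to place, so the absence of a peak is uncertain there, and this was not tested. The stretch of 891 kb around Bglap held 30 protein-coding genes.

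Phex, an endopeptidase of osteoblasts and osteocytes whose loss causes phosphate wasting, lies on the X chromosome (157162075 to 157415286, minus strand, 253 kb). It was the farthest from a peak of the 10 genes, at 2001 kb, where a peak of 1.23 kb (159416555 to 159417787) was joined to Map7d2. Only 3.09% of protein-coding genes were as far or farther. The stretch without a peak was 6.28 Mb and held 41 protein-coding genes. Peaks were sparse on this chromosome, where 5.9% of protein-coding genes had one, and the part of this in the distance of Phex was not tested.

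Over all 10 genes the median distance of the gene body to the nearest peak was 112.2 kb, against 64.6 kb over 21631 protein-coding genes. For 5′ ends it was 130.8 kb over 9 genes, against 84 kb over 17492. Within 100 kb of the gene body 5 of the 10 had no peak (43.1% of protein-coding genes), within 250 kb 3 (26.1%) and within 500 kb 1 (15.9%). The 10 genes had a median of 4 peaks and 10.1 kb covered within 500 kb, against 8 peaks and 15.8 kb. None of these differences has an error, and 3 of the 10 share the cluster on chromosome 5.

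**Figure D3:**
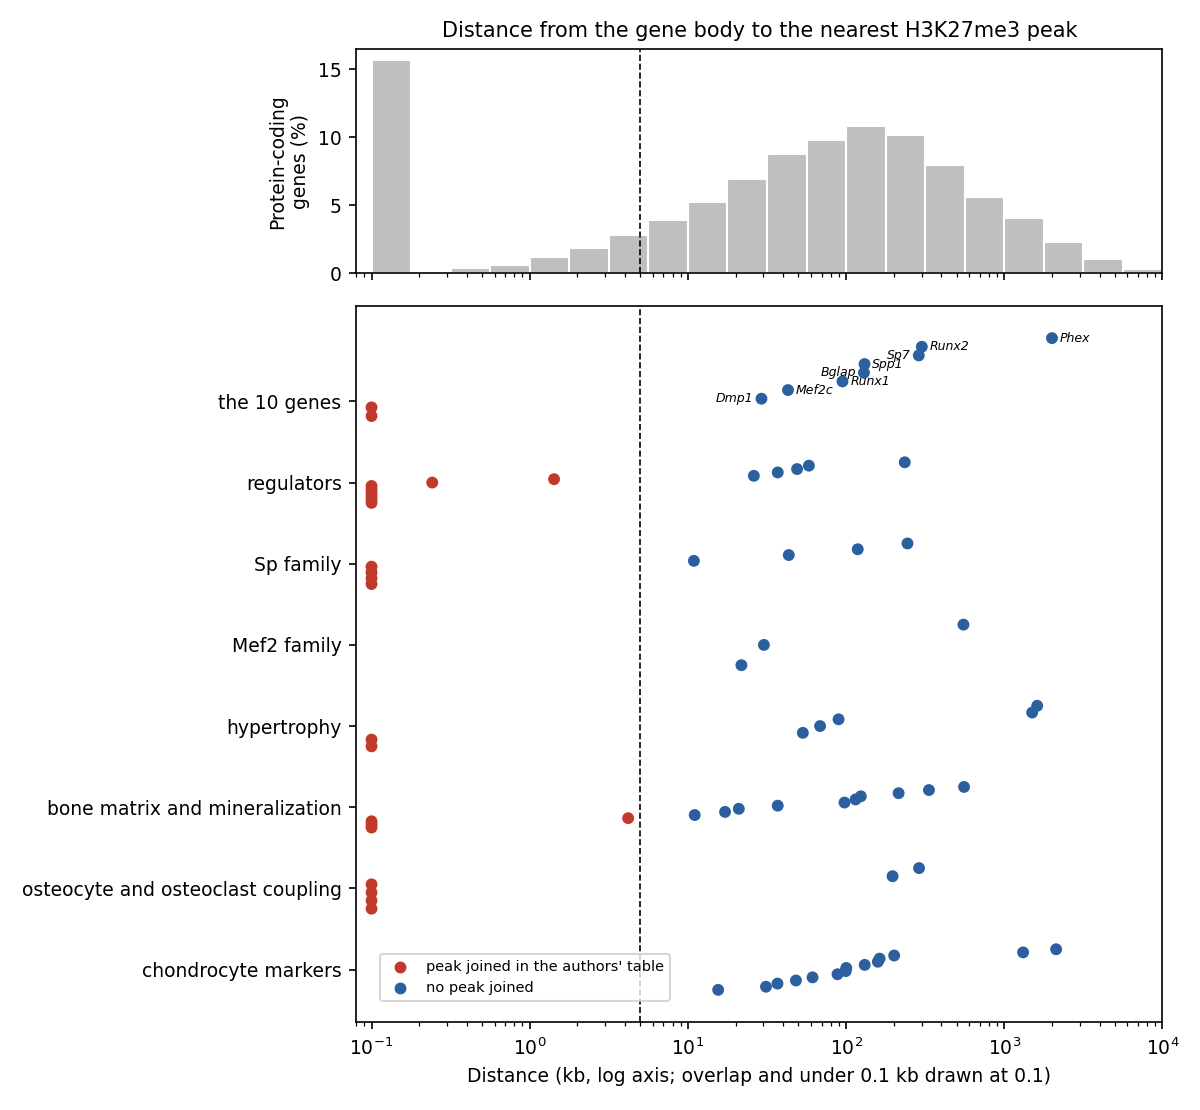
Distance in kb on a log axis from the gene body to the nearest peak, with all protein-coding genes as percentages above and each gene of the lists as a point below. The dashed line marks 5 kb, and the 8 genes without a peak run from Dmp1 at 29.2 kb to Phex at 2001 kb, within the range of the grey distribution.

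The other genes of these pathways give the setting, from lists of regulators, relatives of Sp7 and Mef2c, hypertrophy genes, matrix genes and osteocyte genes. Of these 51 genes, 22 had a peak (43.1%, 30.5 to 56.7%), beside 20.7% of all protein-coding genes, and 9 of the 46 with a listed strand had the 5′ end under one (4.56% of genes). Their 48 peaks had a median width of 3388 bp and a median fold enrichment of 3.46, and 42 had q-values no higher than 0.05. At a q-value limit of 0.01, 14 of the 51 still had a peak and 0 of the 10 did, beside 5.9% of protein-coding genes. The lists were drawn up with earlier results of these data known, and neighbours such as Dlx5 and Dlx6 share a peak, so the shares are a description.

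**Figure D4:**
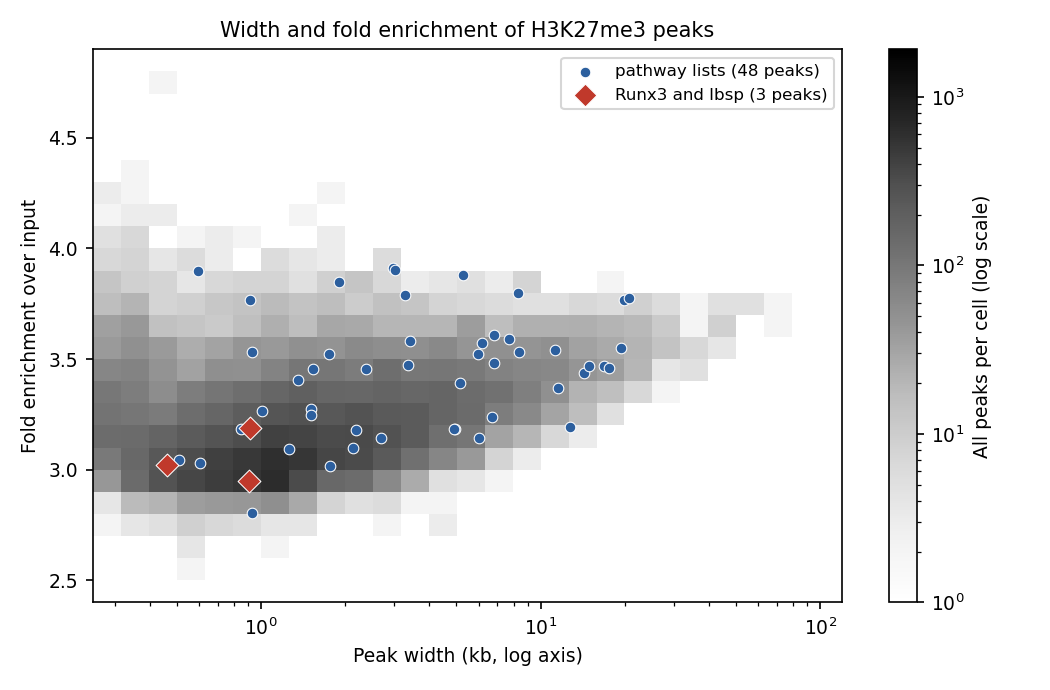
Width (kb, log axis) and fold enrichment of each peak, with all 19359 peaks as grey cells on a log colour scale. The 3 peaks of Runx3 and Ibsp (diamonds) lie at or below 0.912 kb and 3.19-fold, while the 48 peaks of the pathway lists (circles) reach 20.7 kb and 3.91-fold.

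Among regulators of the osteoblast and chondrocyte programmes, 8 of 13 had a peak (61.5%, 35.5 to 82.3%). In 6 of the 13 a peak overlapped the gene body, beside 14.2% of protein-coding genes. The homeobox genes Dlx3, Dlx5, Dlx6 and Msx2 had summed peak lengths of 8.61, 10.0, 28.1 and 25.8 kb. Twist1 and Twist2, which restrain Runx2, had 15.0 and 4.75 kb, and Foxa2, a forkhead factor of hypertrophy, had 21.6 kb. These sums include peaks beside a gene. All peaks of Twist1 (upstream and downstream) and of Foxa2 (downstream) lay outside the gene, as did the widest of Dlx6 (19.8 kb, upstream). Those without a peak were Cbfb, the partner of all Runx proteins (49 kb from a peak), Atf4 (26.1 kb), Foxa3 (37 kb), Hdac4, a deacetylase that restrains Runx2 and Mef2c (58.2 kb), and Zfp521 (235 kb).

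The relatives of Sp7 fell into 4 with a peak and 4 without. Of these 8 Sp genes, Sp5, Sp6, Sp8 and Sp9 had peaks of 23.3, 16.7, 18.9 and 13 kb in sum, and all 4 had the 5′ end covered. Sp1, Sp2, Sp3 and Sp4 had none, at 244, 10.9, 118 and 43.4 kb. None of the 3 relatives of Mef2c had a peak, with Mef2d at 21.8 kb, Mef2b at 30.2 kb and Mef2a at 552 kb.

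Of 7 hypertrophy genes 2 had a peak (28.6%, 8.22 to 64.1%, an interval that includes the 20.7% of all protein-coding genes). They were Ihh, the hedgehog ligand of prehypertrophic cells (29.6 kb in sum), and Alpl, the alkaline phosphatase of mineralizing cells (7.26 kb), whose 5′ end was covered by a peak of 3.14-fold. Col10a1 and Mmp13, which define the hypertrophic state, were 1500 and 1614 kb from a peak. Pth1r was 68.5 kb away, Vegfa 53.3 kb and Panx3 89.6 kb.

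Of 14 other genes of bone matrix and mineralization 4 had a peak (28.6%, 11.7 to 54.6%, which also includes 20.7%). Col1a1, the main collagen chain of bone, had 7.94 kb in sum, with a peak of 6.19 kb at 3.57-fold (q-value 0.00577) that ended 368 bp upstream of the gene. Col1a2, its partner chain, had none within 17.2 kb. The others were Phospho1 (4.59 kb) and Smpd3 (1.01 kb), enzymes of matrix vesicles, and Dspp (0.932 kb). Of 6 genes by which bone cells signal, 4 had a peak (66.7%, 30 to 90.3%), as Sost lay wholly under a peak of 17.6 kb, and Fgf23, Dkk1 and Tnfsf11 had 9.61, 6.82 and 0.848 kb. Tnfrsf11b and Vdr were 289 and 197 kb from one.

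**Figure D5:**
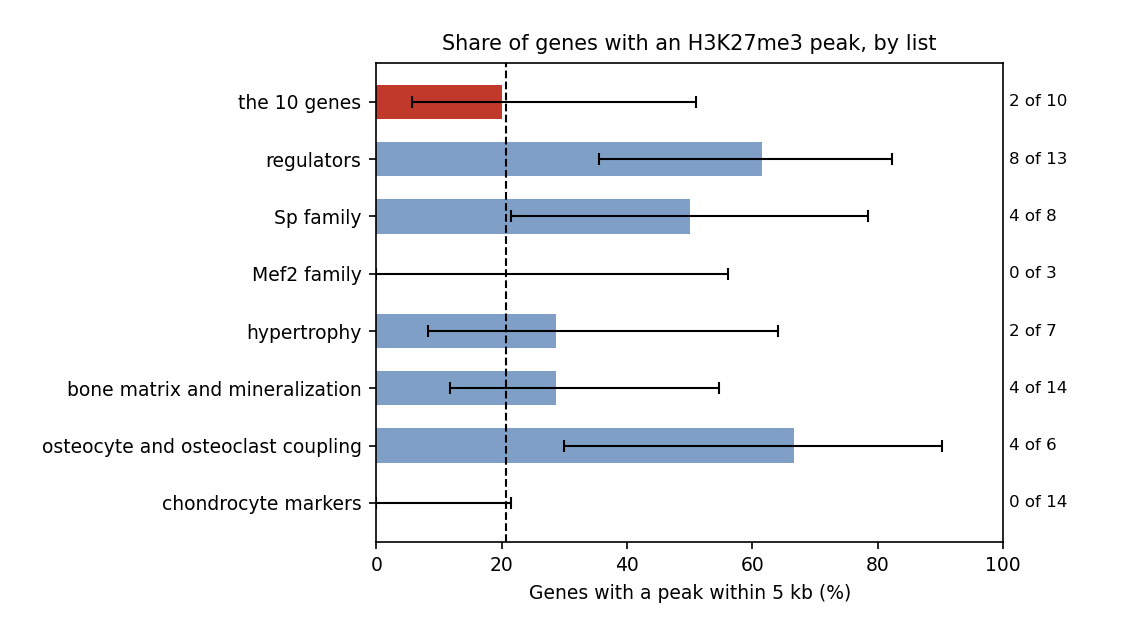
Percentage of genes with a peak within 5 kb in each list (bars, 95% Wilson intervals as lines), the counts at the right and all protein-coding genes (20.7%) as the dashed line. The bar of the 10 genes ends at 20%, next to that line, and those of chondrocyte markers and Mef2 genes are at 0.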

How the data were processed

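H3K27me3 ChIP and input libraries, 1 of each, were compared by the authors. Per the submitters' processing notes, the tools were CASAVA 1.8.4, Bowtie2 and MACS2 and the build mm10. Per the file headers, MACS 2.1.0.20140616 was run in broad mode with a q-value cutoff of 0.05 and a fragment length of 294 bp, on 17237574 ChIP and 17004082 input tags after filtering, the larger library being scaled to the smaller. The authors deposited for each peak its length, its pileup (a coverage signal, the mean number of ChIP fragments), its fold enrichment (the ratio of pileup to input background, each plus 1) and its p-value and q-value as −log10 means over the peak. Peaks with a mean q-value over 0.05 made up 39.2% of the list. A second deposited table joined peaks to Ensembl records within 5 kb, by a tool not given in the sources used here. Names of the p-value and q-value columns had been altered by a spreadsheet in the peak list, so q-values were read from the second table, which held the same 19359 peaks. The p-values were not used.

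Peaks were counted once each and genes by symbol. Distances used the RefSeq gene table (GRCm38.p6), with strands from the RefSeq promoter table and, for list genes not in it, from the authors' table. The authors' table could give a strand only to genes with a joined peak, and the background genes had no strand added. Stretches without a peak were measured at the middle of a gene. CpG ratios are observed over expected from base counts, per window of 300 bases. Shares have 95% Wilson intervals (SciPy 1.17.1), and the interval and distance functions were tested on simulated data. No test was possible with 1 library per group. Analyses used Python 3.11.15, pandas 2.3.3, NumPy 2.4.6 and matplotlib 3.10.9.

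Genes named are the 10 members, list genes with a peak, each list's defining genes without one, and genes joined to peaks nearest to a member. A list gene that is counted but not named is not reported here. Members and lists were chosen with earlier results of these data known. Alternatives were thresholds on q-value, fold enrichment and width, overlap with the gene body, and gene position with a reach of 5 or 20 kb.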

Additional observations from a re-analysis of the deposited data

How the results depend on the processing

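Over 6 results, 34 alternative values were computed, of which 17 moved and 17 did not. Those that did not were 12 counts of genes with a peak, which stayed within 1.5 times the main count, and the 5 counts of covered 5′ ends, which were 0 throughout. The number of the 10 genes with a peak was 2, and it was 1 (Runx3) with q-values up to 0.05 and 0 with q-values up to 0.01, with a fold enrichment limit of 3.5 and with a width limit of 1 kb. It stayed at 2 with gene table positions, with a reach of 20 kb and with overlap of the gene body. The summed peak length of 2282 bp went to 912 bp with q-values up to 0.05 and to 0 bp in the other 3 of these settings. The median distance from the 5′ end to a peak, 130758 bp, went to 319479 bp with q-values up to 0.05, to 1488782 bp with the limits of 0.01 and of 3.5-fold, and to 190645 bp with the width limit of 1 kb. The pathway genes with a peak, 22 of 51, were 13 at a fold enrichment of at least 3.5 and 14 with q-values up to 0.01. All protein-coding genes with a peak, 4535, were 1171 and 1292 in these settings and 7211 with a reach of 20 kb. Stricter thresholds leave fewer peaks and a wider reach takes in more genes by construction. Of these 5, 4 only remove peaks, so that a count of 0 could not change, and the other covers 2 genes, so they say nothing of stability. No paired analysis was possible because there was 1 library in each group, and there was no replicate to leave out. At this depth the lowest called pileup was 9.86 fragments over a background of 2.67, so weaker marks would not be seen.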

Other observations

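Each Runx gene has a chloride channel gene of the Clic family beside it, with 0 protein-coding genes lying wholly between them, and these neighbours were looked at after their values were seen. Clic6, 60.2 kb from Runx1, had 2 peaks of 12.2 kb in sum with a highest fold enrichment of 3.33. Clic5, 216 kb from Runx2, had 3 peaks of 4.42 kb in sum with a highest value of 3.24. Clic4, 36 kb from Runx3, had 0 peaks and was 7.85 kb from the nearest. So the unmarked Runx1 and Runx2 stood beside a Clic gene with peaks, and Runx3, which had peaks, beside one without. This contrast rests on the reach of 5 kb, since Clic4 too would be counted with a reach of 20 kb. Of all protein-coding genes, 20.7% had a joined peak and 32.9% had one within 20 kb. The Runx and Clic genes make 3 pairs in 1 peak list.

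The inner start of Runx3 in a short gap between peaks was set beside all start sites of the promoter table, with classes of CpG ratio chosen after the data were seen. Of 32812 start sites, 4.58% were under a peak and 2.86% lay in a gap of 5 kb or less between neighbouring peaks. Among the 11740 starts with a CpG ratio of 0.6 or more, 4.63% were under a peak and 4.08% in such a gap. Among the 7334 starts with a ratio from 0.3 to 0.6 the values were 6.8% and 3.3%, and among the 13738 below 0.3 they were 3.36% and 1.58%, so the share under a peak was highest in the middle class. At a ratio of 0.8 or more, more starts lay in a short gap (3.65%) than under a peak (3.02%). Whether base composition, read depth or the mark itself gives this was not tested.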
